A study of Rattus norvegicus with 46 samples.

Results

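Fatty acid oxidation and ketone body metabolism were followed through 40 rat genes in liver and quadriceps muscle, taken by symbol from a count table of 32552 genes. By role they were 4 genes of the carnitine shuttle, 13 of mitochondrial beta-oxidation, 8 of peroxisomal beta- and alpha-oxidation, 5 omega-hydroxylases and acyl-CoA thioesterases, 3 of ketone body metabolism, 3 linked to fuel choice or to PPAR alpha, and 4 of fatty acid uptake, binding and activation. All 40 were found. The filter on low counts kept 38 of them in liver, where Acot1 and Fabp3 did not pass, and 36 in quadriceps, where Cyp4a1, Cyp4a2, Cyp4a3 and Acot1 did not pass.

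The rats were labelled WT and DIO (diet-induced obese, made obese by diet), and bulk RNA of both tissues was sequenced in 3 groups. One group was weight matched by food restriction. Another received CagriSema, a combination of cagrilintide, a long-acting amylin analog, and semaglutide, a GLP-1 receptor agonist. The vehicle group was the control, and the design text gives 20 days for the liver study. Liver had 8 weight-matched, 7 CagriSema and 8 vehicle libraries, and quadriceps had 8, 8 and 7. The labels name neither strain, sex, age nor doses, and nothing in them shows that libraries of a group are from separate rats. The p-values therefore reflect spread among libraries, which may be technical.

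Long-chain fatty acids enter mitochondria as carnitine esters made by carnitine palmitoyltransferase 1 and turned back to acyl-CoA by carnitine palmitoyltransferase 2. There they are shortened in repeated rounds of oxidation, hydration, oxidation and cleavage, with electrons passed through the electron transfer flavoprotein to the respiratory chain. Peroxisomes shorten very long and branched chains, microsomal CYP4A enzymes oxidise the far end of the chain, and the liver turns spare acetyl-CoA into ketone bodies that muscle burns. Many of these genes are known targets of the nuclear receptor PPAR alpha, which binds paired short repeats spaced by a single base.

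RefSeq promoter windows (GRCr8 build, 250 bases before to 50 after the annotated start) were matched for 33 of the 40 genes. They were searched on both strands for 2 copies of AGGNCA in the same direction with 1 base between them, a pattern like that bound by PPAR alpha. It was present in 1 of the 33 windows, that of Fabp1, against 0.415% of all 33469 windows, and its place was 77 to 65 bases before the start. A match is a description of letters, not a site, and the other 32 windows lacked these letters in this stretch. The 250 bases before the start of Fabp1 are printed because it had the most negative change among the genes past the threshold for weight matching against vehicle in liver, those before Hacl1 as the gene that passed between CagriSema and weight matching, and the 200 bases that the windows of Hadha and Hadhb share as an example of a promoter stretch common to a pair of members. Each is written 5′ to 3′ on the strand given, in lower case with the matched pattern in capitals.
Fabp1, chr4:104749090-104749339, plus strand: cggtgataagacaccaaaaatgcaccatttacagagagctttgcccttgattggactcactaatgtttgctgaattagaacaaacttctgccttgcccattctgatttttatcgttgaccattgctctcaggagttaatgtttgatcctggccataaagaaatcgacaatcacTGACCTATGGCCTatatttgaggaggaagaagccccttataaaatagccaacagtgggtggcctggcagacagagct
Hacl1, chr16:6869411-6869660, minus strand: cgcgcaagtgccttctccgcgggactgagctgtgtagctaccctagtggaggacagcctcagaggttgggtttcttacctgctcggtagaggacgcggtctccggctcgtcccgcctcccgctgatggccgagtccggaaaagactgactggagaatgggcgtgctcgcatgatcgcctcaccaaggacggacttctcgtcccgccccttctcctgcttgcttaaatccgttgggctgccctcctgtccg
Hadha and Hadhb, chr6:31907551-31907750, plus strand: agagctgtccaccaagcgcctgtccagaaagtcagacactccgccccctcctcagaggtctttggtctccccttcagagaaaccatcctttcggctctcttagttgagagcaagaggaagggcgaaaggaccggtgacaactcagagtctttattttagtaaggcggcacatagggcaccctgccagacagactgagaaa
The annotated starts of Hadha and Hadhb, the alpha and beta subunits of the mitochondrial trifunctional protein, lay 300 bases apart and pointed away from each other. Their values in each comparison are given side by side with the beta-oxidation genes.

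Library totals were 9888858 to 15948219 counts in liver and 11462369 to 16525274 in quadriceps, and all levels are CPM, counts scaled to library size. The labelled tissues matched their markers. Hepatocyte genes summed to between 119266 and 213825 CPM in liver libraries, against 37.1 to 120.0 in quadriceps. Genes of skeletal muscle fibres summed to between 1.98 and 109 CPM in liver libraries, against 133565 to 263317 in quadriceps. Some vehicle libraries stood apart. In liver, vehicle library 4 scored 134 on principal component 1 and had 1.87% of its counts in ribosomal protein genes against a median of 0.787% over liver libraries, and vehicle library 6 had 9.29% of its counts in mitochondrially encoded genes against a median of 4.92%. In quadriceps, vehicle libraries 2 and 5 lay highest on the second component, at 43.8 and 40.5. Some results are therefore also given without these libraries.

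Liver and quadriceps carried different members of several gene pairs. In vehicle libraries, 35 of 39 tested genes passed an adjusted p under 0.05 between the tissues, 21 higher in liver and 14 lower. Of all 14110 genes tested, 83.4% passed, 43.4% higher in liver and 40% lower, so a difference between the tissues was the common case. Without the vehicle libraries that stood apart the count was again 35, with 18 higher and 17 lower in liver. The tissue levels that follow were scaled over both tissues together and are means ± SD over 8 liver and 7 quadriceps vehicle libraries.

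Of the outer-membrane carnitine palmitoyltransferases, Cpt1a averaged 582 ± 195 CPM in liver and 12.6 ± 4.26 CPM in quadriceps. Cpt1b, the muscle form, averaged 2.83 ± 0.23 CPM in liver and 299 ± 102 CPM in quadriceps. The ranges of the tissues did not overlap for either gene. Among the fatty acid binding proteins, Fabp1 averaged 1545 ± 979 CPM in liver and 1.29 ± 0.74 CPM in quadriceps. Fabp3, the heart and muscle form, averaged 0.55 ± 0.31 CPM in liver and 333.5 ± 212 CPM in quadriceps. Ketone body genes also split by tissue. Bdh1, which converts acetoacetate and 3-hydroxybutyrate into each other, averaged 328 ± 55.7 CPM in liver and 10.2 ± 6.46 CPM in quadriceps. Oxct1, the enzyme that lets tissues use ketone bodies and that hepatocytes are known to lack, averaged 1.26 ± 0.43 CPM in liver and 672 ± 248 CPM in quadriceps.

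Peroxisomal genes were higher in liver in 7 of 8 cases. Hacl1 averaged 337 ± 123 CPM in liver and 7.22 ± 1.18 CPM in quadriceps, and Ehhadh, the peroxisomal bifunctional enzyme, averaged 383 ± 103 CPM in liver and 14.5 ± 5.27 CPM in quadriceps. Ech1, a dienoyl-CoA isomerase found in peroxisomes and mitochondria, was the exception, at 134 ± 35.5 CPM in liver and 320.5 ± 125 CPM in quadriceps. The mitochondrial set was mixed, with 6 of 13 genes higher in liver, 4 lower and 3 not past the threshold. Hadhb averaged 166.5 ± 20.0 CPM in liver and 739 ± 220.0 CPM in quadriceps, while Decr1, which reduces double bonds of unsaturated chains, averaged 196 ± 56.6 CPM in liver and 67.7 ± 23.4 CPM in quadriceps. The omega-hydroxylases Cyp4a1, Cyp4a2 and Cyp4a3 had 13, 1 and 2 counts in all over the 7 vehicle quadriceps libraries. They are close relatives, as are Acot1 and Acot2, so reads shared between copies could have been split or dropped in counting.

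**Figure D1:**
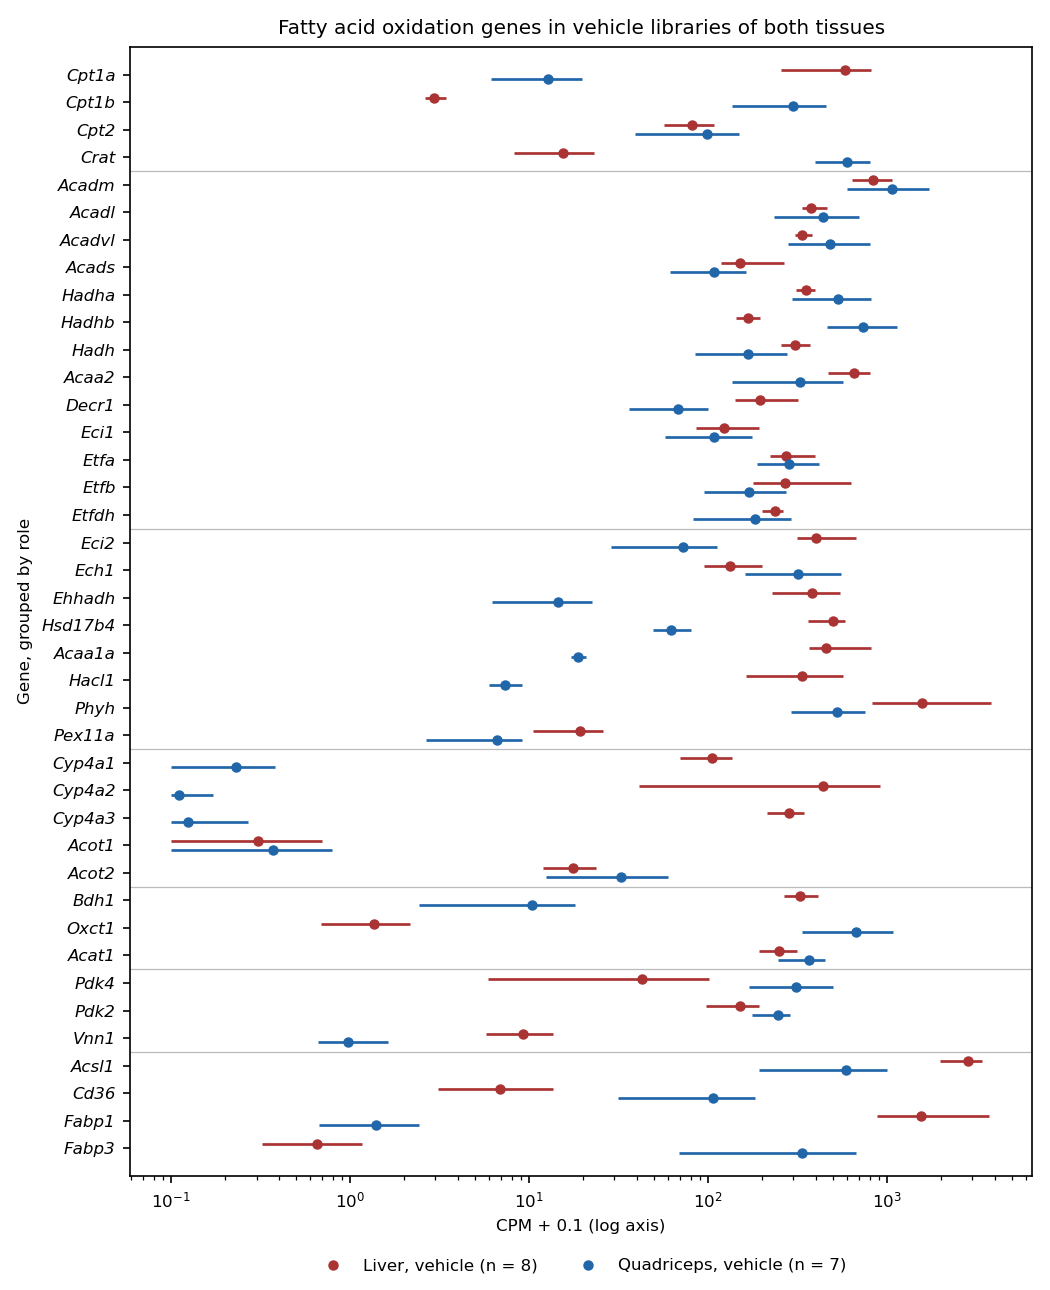
Level of each of the 40 genes in vehicle libraries, as CPM + 0.1 on a log axis, with liver (n = 8) above quadriceps (n = 7) in each row. Points are group means and lines run from the lowest to the highest library; Cpt1a and Cpt1b, Fabp1 and Fabp3, and Bdh1 and Oxct1 lie on opposite sides in the 2 tissues.

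In liver, food restriction alone was compared with vehicle. Fabp1, Cyp4a1, Etfdh and Hadh fell and Ech1 rose, so that 5 of 38 genes passed, 4 lower and 1 higher. Means below carry SDs over the libraries of a group, and fold changes carry standard errors. The 5 genes are 13.2% of the tested members against a background of 7.02% of 12702 genes, with 4.53% of all genes lower and 2.49% higher. At an unadjusted p under 0.05 there were 14 of 38, 10 lower and 4 higher, which is 36.8% of the members against 24.4% of all genes tested. The median log2 fold change of the 38 genes was -0.13, against -0.01 over all genes tested. In bulk RNA, fewer cells of a type and less RNA per cell cannot be told apart.

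Fabp1 (ENSRNOG00000006675), the abundant fatty acid carrier of the hepatocyte cytosol, had 663, 740.0 and 974 CPM as its lowest, median and highest values in weight-matched livers, against 890.0, 1178 and 3837 CPM in vehicle livers. All but 1 of the 8 weight-matched libraries lay below every vehicle library. The log2 fold change was -1.02 ± 0.24 (SE) with an adjusted p of 0.0114. The highest vehicle values were those of libraries 4 and 6, at 3837 and 2259 CPM, and without both the change was -0.49 ± 0.12 with an adjusted p of 0.0141. It stayed past the threshold in 16 of 16 fits that left out 1 library each, where it ran from -1.11 to -0.69, the smallest being that without vehicle library 4.

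Cyp4a1 (ENSRNOG00000009597), which hydroxylates the omega end of fatty acids, had 28.6, 54.0 and 116 CPM in weight-matched livers and 71.7, 104 and 139.5 CPM in vehicle livers (lowest, median and highest). Here 7 of 8 weight-matched libraries lay below every vehicle library, and the remaining one, library 25, was the highest of its group. The log2 fold change was -0.86 ± 0.21, with an adjusted p of 0.0139. Its relatives did not pass. Cyp4a3 had a log2 fold change of -0.24 ± 0.21, and Cyp4a2, which ran from 41.9 to 935.5 CPM within the vehicle group alone, had -0.05 ± 0.48.

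Etfdh (ENSRNOG00000009538), the dehydrogenase that hands electrons from beta-oxidation to ubiquinone, had 159.5, 173 and 251 CPM in weight-matched livers and 205, 242 and 268 CPM in vehicle livers. Again 7 of 8 weight-matched libraries lay below all vehicle libraries, library 32 being the exception. The log2 fold change was -0.38 ± 0.08, with an adjusted p of 0.00867. Etfa and Etfb, the subunits of the flavoprotein it oxidises, did not pass, at 0.05 ± 0.09 and -0.28 ± 0.19. For Etfb, vehicle library 4 was at 644 CPM and the other vehicle livers at 183 to 314 CPM. The Etfb medians went the other way, at 229 CPM in weight-matched and 213 CPM in vehicle livers, and 6 of 8 weight-matched libraries lay above the vehicle median. Hadh (ENSRNOG00000010697), the dehydrogenase of the third step of the spiral, had 234, 248 and 308 CPM in weight-matched livers and 263, 316 and 384 CPM in vehicle livers. All 8 weight-matched libraries lay below the vehicle median and 6 below every vehicle library. Its log2 fold change was -0.29 ± 0.08, with an adjusted p of 0.0311, and it passed in 7 of 16 fits that left out 1 library each, with adjusted p up to 0.0637.

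Ech1 (ENSRNOG00000020308) went the other way, with 156, 192 and 271 CPM in weight-matched livers and 96.7, 130.4 and 202 CPM in vehicle livers. All 8 weight-matched libraries lay above the vehicle median, though the ranges overlapped. The log2 fold change was 0.57 ± 0.16, with an adjusted p of 0.0347, and it passed in 8 of 16 fits that left out 1 library each, with adjusted p up to 0.0773. Hacl1, Pex11a and Vnn1 had positive log2 fold changes of 0.60 ± 0.27, 0.53 ± 0.23 and 0.58 ± 0.26 that did not pass, with adjusted p of 0.169, 0.149 and 0.170. Pex11a takes part in peroxisome division, and Vnn1 is a pantetheinase that frees cysteamine and vitamin B5.

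The entry step and the ketone genes gave no call. Cpt1a, which controls entry into mitochondria, averaged 578 ± 126 CPM in weight-matched livers and 594 ± 198 CPM in vehicle livers, a log2 fold change of -0.04 with a 95% interval from -0.46 to 0.38. In mitochondrial beta-oxidation, 2 of 13 genes fell, none rose, and the median was -0.19, from -0.38 to 0.12. Hadha and Hadhb were at -0.19 ± 0.08 and -0.04 ± 0.11, and neither passed. The 3 ketone genes lay between -0.18 and -0.05.

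Without liver vehicle libraries 4 and 6 the same 5 genes passed, and the median of the 38 was -0.06. Genes of red blood cells moved in this comparison too, with 3 of 4 tested erythroid markers lower and their sum 63.4 to 139.6 CPM in weight-matched livers against 129 to 756 CPM in vehicle livers. Of the markers of other cell types 1 of 8 fibroblast and 1 of 10 endothelial genes were higher and 1 of 6 adipocyte genes lower. The adipocyte list is not separate from the hepatocyte list, as both hold Pck1. Of the hepatocyte markers 2 of 14 were lower, and their sum was 124770 to 153121 CPM in weight-matched livers and 133951 to 213825 CPM in vehicle livers. Their part in the results was not tested.

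**Figure D2:**
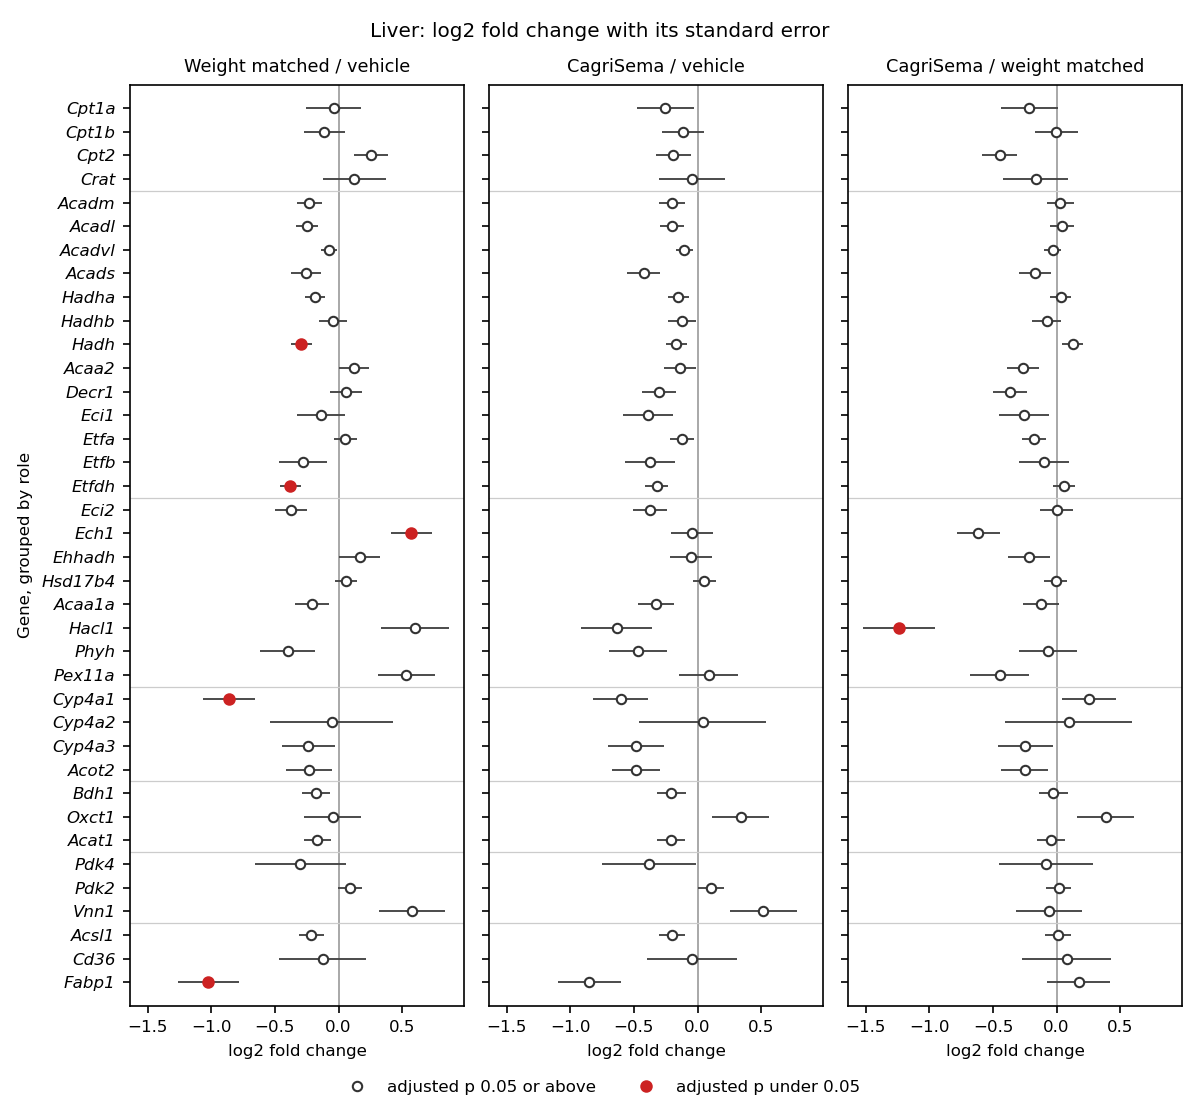
Log2 fold change of the 38 tested genes in liver in 3 comparisons, with the group named first divided by the second and lines showing the standard error. Filled points passed an adjusted p under 0.05, which were 5 genes for weight matched against vehicle, none for CagriSema against vehicle, and Hacl1 for CagriSema against weight matched.

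In CagriSema livers compared with vehicle, no gene of the 38 passed edgeR's test, against a background of 0.354% of all genes. At an unadjusted p under 0.05 there were 12, all with negative fold changes, which is 31.6% of the members against 17.8% of all genes. DESeq2 called 2, Etfdh and Fabp1. The median log2 fold change was -0.20, against -0.02 over all genes, and 32 of 38 values were below 0. Etfdh had 177, 191 and 214 CPM in CagriSema livers, with 5 of 7 libraries below every vehicle library, and a log2 fold change of -0.32 ± 0.09 with an adjusted p of 0.0982. Fabp1 had 660, 887 and 1155 CPM in CagriSema livers, a log2 fold change of -0.85 ± 0.25 with an adjusted p of 0.122, and -0.31 ± 0.12 without vehicle libraries 4 and 6. Acads, the short-chain acyl-CoA dehydrogenase, averaged 115 ± 6.08 CPM in CagriSema livers and 154 ± 49.1 CPM in vehicle livers, a log2 fold change of -0.43 ± 0.13 with an adjusted p of 0.126. Vehicle library 4 had the highest Acads level, 272 CPM, and without libraries 4 and 6 the change was -0.23 ± 0.06.

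Of the hepatocyte markers 2 of 14 were lower here too, their sum being 119266 to 146197 CPM in CagriSema livers and 133951 to 213825 CPM in vehicle livers, and 1 of 8 fibroblast genes was higher and 1 of 6 adipocyte genes lower. Their part in these values was not tested.

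Both comparisons with vehicle used the same vehicle libraries, so their values are given side by side without a test of likeness. For Fabp1 the log2 fold changes were -1.02 with weight matching and -0.85 with CagriSema, for Cyp4a1 -0.86 and -0.61, for Etfdh -0.38 and -0.32, and for Hadh -0.29 and -0.17. For Ech1 they were 0.57 and -0.04, and for Hacl1 0.60 and -0.64.

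CagriSema livers were compared with weight-matched livers, which sets the drug against food restriction at matched weight. Hacl1 (ENSRNOG00000019630), the peroxisomal lyase that removes a carbon in alpha-oxidation of branched chains, fell, and it was the 1 gene of 38 that passed. The background was 0.535% of all genes, 0.291% in the lower direction. Hacl1 had 134, 211 and 302.5 CPM in CagriSema livers, against 239, 440.5 and 1159 CPM in weight-matched livers, and vehicle livers lay between at 168, 344 and 584 CPM. Of the 7 CagriSema libraries 5 lay below every weight-matched library, and all 7 below the weight-matched median. The log2 fold change was -1.24 ± 0.28, with an adjusted p of 0.0424.

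The Hacl1 call was close to the threshold. It passed in 2 of 15 fits that left out 1 library each, with adjusted p up to 0.110, and without weight-matched library 25, the one at 1159 CPM, the log2 fold change was -0.96. Against vehicle its changes were 0.60 ± 0.27 for weight matching and -0.64 ± 0.28 for CagriSema, and neither passed. In these comparisons Phyh, which acts before Hacl1 in alpha-oxidation, had -0.40 ± 0.22 and -0.47 ± 0.23, and -0.07 ± 0.23 for CagriSema against weight matching. Vehicle library 4 was at 3923 CPM for Phyh, and the other vehicle livers at 839 to 1617 CPM. The Phyh changes against vehicle include that library, and values without it are not given here.

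A further 4 genes had an unadjusted p under 0.05 for CagriSema against weight matching, all negative, and did not pass. With Hacl1 they were 13.2% of the members, against 10.6% of all genes. Ech1 averaged 132 ± 34.2 CPM in CagriSema livers and 202.5 ± 38.7 CPM in weight-matched livers, a log2 fold change of -0.61 ± 0.17 with an adjusted p of 0.108. Cpt2, the inner-membrane carnitine palmitoyltransferase, averaged 72.9 ± 11.9 CPM in CagriSema livers and 99.3 ± 20.4 CPM in weight-matched livers, a log2 fold change of -0.45 ± 0.14. Decr1 and Acaa2, the mitochondrial thiolase of the last step, were at -0.37 ± 0.13 and -0.26 ± 0.13. For Ech1, Cpt2, Decr1 and Acaa2 alike, all 7 CagriSema libraries lay below the weight-matched median. The same held for Acads, Etfa and Etfb, which had no unadjusted p under 0.05. For Hadh and Etfdh all 7 lay above it. The share of all genes with all 7 libraries on the same side of that median was not counted. Without vehicle libraries 4 and 6, which enter only through the shared estimate of spread, 3 genes passed, namely Hacl1, Ech1 and Decr1 with adjusted p of 0.0148, 0.0431 and 0.0233. Over all genes 590 passed in that fit, against 68 in the fit with all libraries. Of the genes that fell with weight matching against vehicle, Fabp1, Cyp4a1, Etfdh and Hadh had log2 fold changes of 0.17 ± 0.25, 0.26 ± 0.21, 0.06 ± 0.09 and 0.13 ± 0.08 here.

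**Figure D3:**
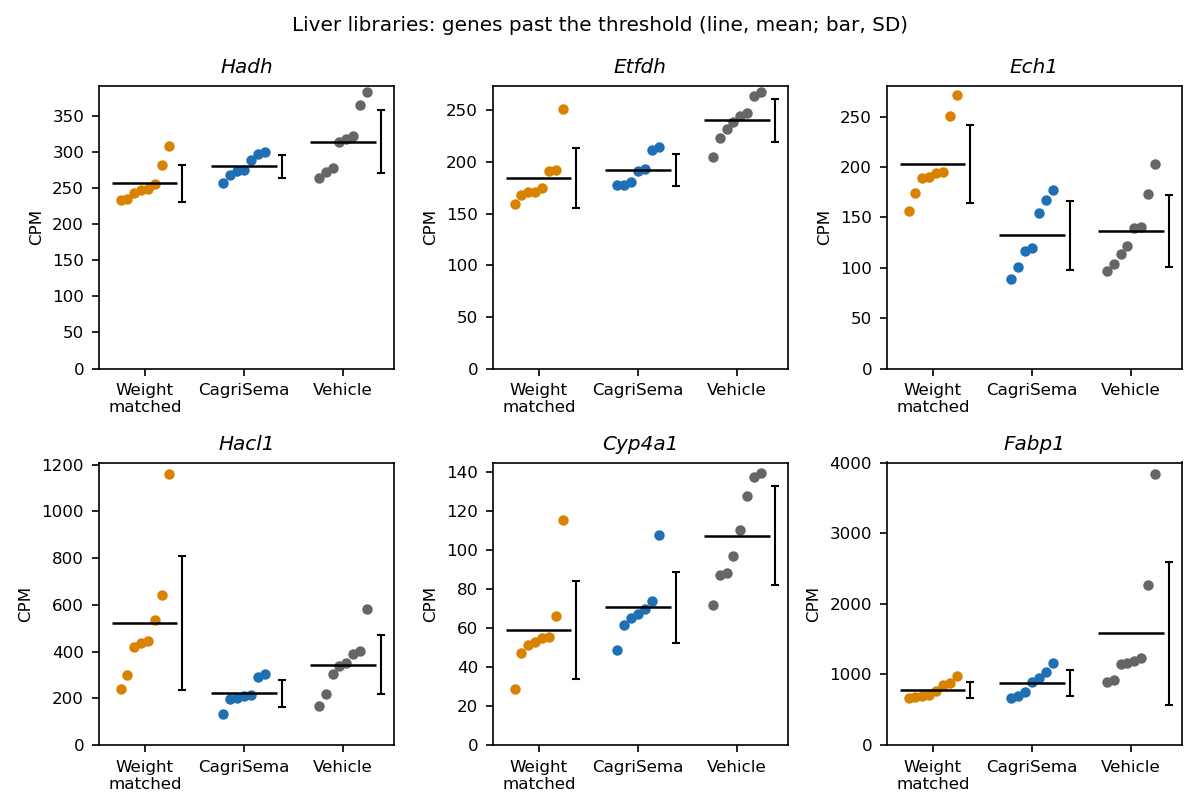
CPM of the 6 genes past the threshold in a liver comparison, with 1 point per library in weight-matched (n = 8), CagriSema (n = 7) and vehicle (n = 8) livers, and mean and SD beside the points; each axis starts at 0. Vehicle library 4 stands at 3837 CPM for Fabp1 and weight-matched library 25 at 1159 CPM for Hacl1.

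In quadriceps no gene of the 36 passed edgeR's test in any of the 3 comparisons. The background was 2.29% of 12471 genes with weight matching and 0.0321% with CagriSema, each against vehicle, and 0.128% between CagriSema and weight matching. At an unadjusted p under 0.05 there were 3, 2 and 2 of 36 genes, or 8.33%, 5.56% and 5.56% of the members, against 19.2%, 10.3% and 7.65% of all genes. DESeq2 called 1, 0 and 1. The medians of the log2 fold changes were -0.05, 0.10 and 0.15. For CagriSema against vehicle 32 of 36 values were positive, but without vehicle libraries 2 and 5 only 14 were, with a median of -0.03. Without the same libraries the median for weight matching against vehicle was -0.18, with 27 of 36 values negative.

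Pdk4, the kinase that shuts pyruvate dehydrogenase and so spares glucose while fat is burnt, had the lowest p of the 36. It had 102, 197 and 430.5 CPM in CagriSema quadriceps, against 193, 441 and 1108 CPM in weight-matched quadriceps, and 166, 289 and 492 CPM in vehicle quadriceps. All 8 CagriSema libraries lay below the weight-matched median, and 3 below every weight-matched library. For CagriSema against weight matching the log2 fold change was -1.41 ± 0.35, with a 95% interval from -2.10 to -0.72 and an adjusted p of 0.213. DESeq2 gave an adjusted p of 0.0436, and edgeR fits that left out 1 library each gave 0.0695 to 0.390. Against vehicle it was 0.84 ± 0.36 for weight matching and -0.58 ± 0.36 for CagriSema. Pdk2, its more constant relative, averaged 286 ± 18.4 CPM in weight-matched quadriceps and 242 ± 39.8 CPM in vehicle quadriceps, a log2 fold change of 0.24 ± 0.08 with an adjusted p of 0.0978, and 0.0474 by DESeq2.

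The muscle members of the tissue pairs gave no call. Cpt1b averaged 322 ± 43.0 CPM in weight-matched, 324 ± 37.9 CPM in CagriSema and 294 ± 101 CPM in vehicle quadriceps. Oxct1 averaged 547 ± 118 CPM in weight-matched, 654 ± 104 CPM in CagriSema and 661 ± 246 CPM in vehicle quadriceps. Fabp3 averaged 224 ± 106 CPM in weight-matched, 344 ± 70.8 CPM in CagriSema and 328 ± 210.0 CPM in vehicle quadriceps, and the vehicle values alone ran from 68.4 CPM in library 2 to 665 CPM in library 8. The 13 mitochondrial beta-oxidation genes lay between -0.16 and -0.01 with weight matching against vehicle, and between 0.10 and 0.30 when CagriSema was set against weight matching. For Hadha and Hadhb the values were -0.07 ± 0.16 and -0.01 ± 0.15 in the first of these and 0.17 ± 0.15 and 0.10 ± 0.14 in the second.

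**Figure D4:**
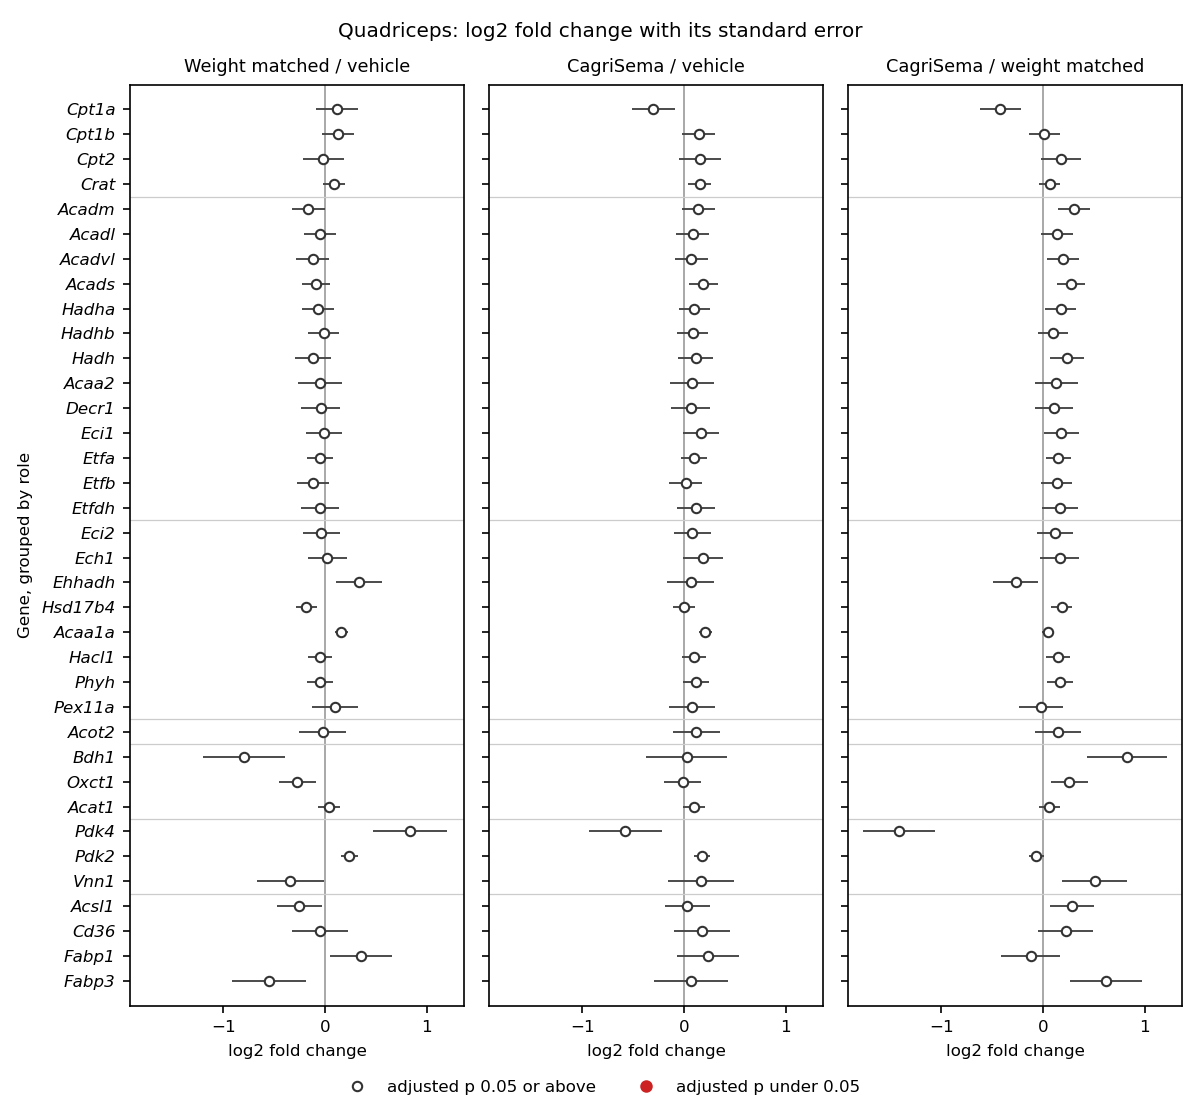
Log2 fold change of the 36 tested genes in quadriceps in 3 comparisons, with the group named first divided by the second and lines showing the standard error. No point passed an adjusted p under 0.05, and Pdk4 lay farthest from 0 for CagriSema against weight matching, at -1.41.

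The quadriceps libraries differed in their content of slow fibre transcripts. The 10 slow-fibre markers, such as Myh7 and Tnni1, summed to 480 to 6529 CPM in weight-matched, 2270 to 8514 CPM in CagriSema and 810 to 13474 CPM in vehicle libraries. None of the 10 passed, with median log2 fold changes of -0.98 with weight matching and -0.13 with CagriSema, each against vehicle, and 0.84 between CagriSema and weight matching. Of the general muscle fibre markers 2 of 12 were higher with weight matching than in vehicle, and 2 of 9 fibroblast markers were lower. The 40 genes together took 0.626% to 1.15% of counts in weight-matched, 0.804% to 1.12% in CagriSema and 0.520% to 1.43% in vehicle quadriceps libraries. Over the 23 libraries this share went with the log2 of the slow-fibre sum, with a Pearson r of 0.766 and a Spearman rho of 0.834 (two-sided permutation p of 2e-05 for each, the smallest these permutations can give, and 8e-05 for r adjusted over 4 relations). Without the 2 libraries farthest from the median sum, r was 0.82. Within groups r was 0.751 in weight-matched (n = 8), 0.612 in CagriSema (n = 8) and 0.785 in vehicle libraries (n = 7), with exact permutation p of 0.0308, 0.111 and 0.0321 and adjusted values of 0.0428, 0.111 and 0.0428. Both measures are parts of the same library totals, and the part of fibre content in the group values was not tested. Mitochondrially encoded genes also varied, from 10.96% of counts in vehicle library 2 to 22.84% in vehicle library 8. These libraries also had the lowest and highest shares in the 40 genes, at 0.520% and 1.43%. How the mitochondrially encoded share relates to the share in the 40 genes was not tested, so the relation above does not single out fibre content.

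**Figure D5:**
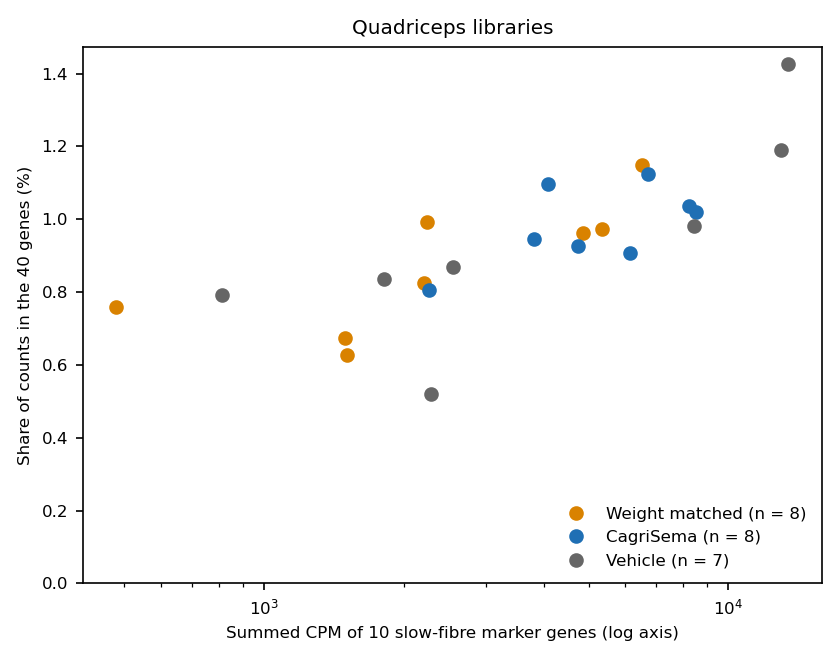
Share of counts in the 40 genes, in percent, against the summed CPM of 10 slow-fibre markers on a log axis, with 1 point for each of the 23 quadriceps libraries in 3 groups. The share runs from 0.520% to 1.43%, both in vehicle libraries, and libraries with a high marker sum lie at high shares.

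The difference of each change between the tissues was tested with an interaction term in a fit of the 46 libraries. No gene of 39 passed edgeR's test with weight matching against vehicle, with CagriSema against vehicle, or between CagriSema and weight matching, with backgrounds of 2.76%, 0.149% and 0.0213% of 14110 genes. At an unadjusted p under 0.05 there were 6, 8 and 9 genes, or 15.4%, 20.5% and 23.1% of the members, against 18.6%, 15.0% and 7.31% of all genes. DESeq2 called 1 in each. In every comparison within a tissue, DESeq2 called more of all genes than edgeR. Its counts over all genes for these differences are not given here. The lowest adjusted p in each were those of Fabp1 for weight matching, whose liver change minus quadriceps change was -1.37 ± 0.41 with an adjusted p of 0.0519, of Acaa1a, a peroxisomal thiolase, for CagriSema against vehicle, at -0.54 ± 0.16 with an adjusted p of 0.119, and of Hacl1 between CagriSema and weight matching, at -1.39 ± 0.32 with an adjusted p of 0.0697. Without the vehicle libraries that stood apart the differences were -0.98 with an adjusted p of 0.127 for Fabp1 and -1.39 with an adjusted p of 0.0213 for Hacl1. The value for Acaa1a without them is not given here. Its level was 838 CPM in vehicle liver library 4 and 372 to 495 CPM in the other vehicle livers.

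Genes around the 40 were read from 5 further lists, chosen with earlier results of these data known. For weight matching against vehicle in liver, 2 of 26 other oxidation and ketone genes were higher and 5 lower, 0 of 23 genes of fatty acid entry and activation were higher and 6 lower, and 2 of 21 genes of omega-oxidation and thioesterases were higher and 1 lower. Of 22 genes of peroxisome biogenesis and transport 2 were lower, and of 37 regulators and PPAR targets 3 were higher and 3 lower. The lowest p were those of Txnip, an arrestin-like inhibitor of glucose uptake, at 0.86 ± 0.14, of Lipc, the hepatic lipase, at -0.53 ± 0.09, and of Fabp2, the intestinal fatty acid binding protein, at -2.13 ± 0.39, with adjusted p of 0.00122, 0.00144 and 0.00187. For CagriSema against vehicle in liver, Cyp4b1 rose by 0.68 ± 0.14 and Amacr, a racemase of branched chains, fell by 0.70 ± 0.16 on the log2 scale, with adjusted p of 0.0433 and 0.0492, and they were the 2 that passed in the 5 lists. None passed for CagriSema against weight matching in liver.

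In quadriceps, 1 list gene passed for weight matching against vehicle, the clock repressor Nr1d1, which fell by 0.78 ± 0.17 on the log2 scale with an adjusted p of 0.0191. None passed for CagriSema against vehicle. For CagriSema against weight matching 1 passed, Ucp3, the uncoupling protein of muscle mitochondria, with a log2 fold change of -1.78 ± 0.35 and an adjusted p of 0.0464. It averaged 23.4 ± 10.7 CPM in CagriSema, 80.3 ± 45.5 CPM in weight-matched and 42.7 ± 13.5 CPM in vehicle quadriceps. The regulators Ppara, Ppard and Ppargc1a did not pass in either tissue. In liver Ppara averaged 82.9 ± 24.5 CPM in weight-matched, 79.8 ± 11.4 CPM in CagriSema and 60.7 ± 29.3 CPM in vehicle livers, where library 4 was lowest at 3.28 CPM.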

How the data were processed

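The values are counts of reads or molecules per gene, which the authors deposited as whole numbers without scaling for 46 libraries. The labels' protocols name an RNeasy Minikit for RNA and the Twist UMI system for library making. The submitters' processing notes list fastp 0.23.1 and STAR 2.5.2b. Genome build, annotation, counting program and the use of molecular identifiers: not given in the sources used here. Library columns were found by title, and 1 further column belonged to none of the libraries and was set aside.

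The members and lists were chosen with earlier results of these data known. In R 4.3.3, edgeR 4.0.16 (filterByExpr with a minimum count of 10, TMM scaling, robust quasi-likelihood F tests) was fitted to the 3 groups of a tissue, or to both tissues together for differences between them. The Benjamini-Hochberg adjustment covered all tested genes, with a threshold of 0.05. Every adjusted p is from edgeR unless DESeq2 1.42.0 is named. Standard errors of fold changes were worked back from the test, as the absolute log2 fold change divided by the square root of F. The 95% intervals were built from these and were not adjusted for the number of genes. A floor of 3 counts corresponds to 0.188 to 0.303 CPM in liver libraries and 0.182 to 0.262 CPM in quadriceps libraries, for counting error alone. The test was tried on simulated counts. Among 253 library pairs in each tissue, chi-square divided by its degrees of freedom was at least 12.9 in liver and 5.47 in quadriceps, so no pair was near-identical. Per-library values are given for genes past the threshold in a tissue, and for Pdk4 and some others chosen after their values were seen. From the lists, up to 3 genes past the threshold per comparison with the lowest p are named, with Ppara, Ppard and Ppargc1a. Of 242 list genes, 16 matched no row and were not analysed here. Alternatives were RLE scaling, no filter, DESeq2, fits of the 2 groups compared only, fits without libraries, and library number as a block.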

Additional observations from a re-analysis of the deposited data

Results flagged for a closer look

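Among 27 groups of liver or quadriceps values screened, 5 held a library far from the rest of its group. Chance flags about 1 in 20 groups when values are normally distributed and groups are independent. The values were not on a log scale and groups shared libraries, so that rate is only a rough guide. In weight-matched livers, Etfdh was 251 CPM in library 32 against 192 CPM in the next, Hacl1 was 1159 CPM in library 25 against 642 CPM in the next, and Cyp4a1 was 116 CPM in library 25 against 66.0 CPM in the next. In CagriSema livers, Cyp4a1 was 108 CPM in library 40 against 73.9 CPM in the next. In vehicle livers, Fabp1 was 3837 CPM in library 4 against 2259 CPM in library 6.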

How the results depend on the processing

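Across the alternatives, fold changes were followed only for members that passed in the main fit or in an alternative of the same comparison. For these, no alternative turned a direction. Of their values 273 kept their side of the threshold, 34 lost a call and 17 gained one. Directions of the other members were not followed. In weight-matched against vehicle livers, 3 members passed with the 2 groups fitted alone, and 3 to 6 without single libraries. Over all genes DESeq2 called 1351, the 2 groups alone 414, and fits without single libraries 532 to 1207. In CagriSema against vehicle livers, DESeq2 called 2 members. All-gene counts were 13 without a filter, 289 by DESeq2, 4 with the 2 groups alone, 18 without vehicle libraries 4 and 6, and 3 to 130 without single libraries. In CagriSema against weight-matched livers, members called were 0 without a filter, 2 by DESeq2, 3 with the 2 groups alone, 3 without vehicle libraries 4 and 6, and 0 to 1 without single libraries. All-gene counts were 45, 221, 603, 590 and 27 to 68 in the same settings.

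In quadriceps, DESeq2 called 1 member with weight matching against vehicle and 1 between CagriSema and weight matching. With weight matching against vehicle, all-gene counts were 131 without a filter, 698 by DESeq2, 7 with the 2 groups alone, 19 without vehicle libraries 2 and 5, and 46 to 645 without single libraries, where the members' median ran from -0.16 to 0.10. With CagriSema against vehicle they were 36 by DESeq2, 2 with the 2 groups alone, 0 without vehicle libraries 2 and 5, and 0 to 7 without single libraries. The members' median was -0.028 without vehicle libraries 2 and 5, and ran from -0.0028 to 0.23 without single libraries. Between CagriSema and weight matching they were 7 without a filter, 34 by DESeq2 and 2 to 17 without single libraries. The causes were not tested.

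For differences between tissues, 1 member passed with weight matching under RLE scaling and 1 by DESeq2, 1 with CagriSema by DESeq2, and between CagriSema and weight matching 1 by DESeq2 and 1 without the vehicle libraries that stood apart. Without those libraries the members' median with weight matching was 0.10, against -0.07 with all libraries, so its sign turned. Library number as a replicate block left 0, 0 and 0 members in the 3 differences and 35 between the tissues, with 282, 10, 0 and 11594 of all genes. Same-numbered liver and quadriceps libraries are not labelled as one rat, and their deviations correlated at -0.0045 to 0.22 over 22 numbers, with 6 over 0.1. Among the 7 or 8 quadriceps libraries of the same treatment only, 18 of the 22 liver libraries correlated best with their own number. This is a hint of shared rats from the data and not from the design, and the fits without the block treat the libraries as independent.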
